A study of Danio rerio with 4 samples.

Results

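Unplaced scaffolds are assembled stretches of the zebrafish genome that have not been assigned to a chromosome, and 1085 CTCF peaks, found by a sequence name beginning with chrUn in danRer10, lay on 420 of them. They made up 2.88% (95% exact binomial interval 2.72 to 3.06%) of the 37625 peaks in a list called on combined replicates. The other 36540 peaks lay on chromosomes 1 to 25. The peaks came from embryos of strain AB at 24 hpf (hours post fertilisation), labelled with the genotype ctcf{HPSH} and obtained by crossing ctcf HA/wt fish. Each of the 2 ChIP replicates used 2000 pooled embryos, whose chromatin was fixed in 1% formaldehyde for 15 min and precipitated with an anti-HA.11 antibody against the tag. The 2 input samples, which shared stage, strain and genotype, received no antibody. Whole embryos mix many cell types, so a peak cannot be assigned to one of them.

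CTCF contacts a long DNA motif through its zinc fingers and, in vertebrates, holds cohesin at the bases of chromatin loops and acts as an insulator between enhancers and promoters. Its sites are mapped by sequencing the DNA that is precipitated with it, and enriched stretches are called as peaks. Unplaced scaffolds commonly hold sequence that is hard to assemble, such as repeats, duplicated segments or alternative copies of placed sequence. No sequence, repeat annotation or gene of these scaffolds was analysed here.

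Because the list was called on combined replicates, each peak has 1 position, 1 width and 1 score, with no value per replicate and no known depth. The score is the authors' whole number on an unstated scale, so scores were compared by rank and no fold of them was computed. All comparisons below are descriptions without a test, since there is 1 list and peaks of 1 scaffold are not replicates. As a yardstick, the main values are set beside their spread over the 25 chromosomes. For other values, such as those of subsets of peaks, no such spread is given. Binomial and order-statistic intervals (95% level) cover counting error only and treat neighbouring peaks as independent.

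Most scaffolds in the list carried few peaks. A single peak was found on 188 of the 420 scaffolds (44.8%), 179 scaffolds had 2 to 4 peaks, holding 498 in all, and 53 had 5 or more, holding 399 (36.8% of scaffold peaks). The median was 2 peaks and the mean 2.58 ± 2.33 (SD over 420 scaffolds). The 9 scaffolds with 10 or more peaks held 112, and the 10 fullest held 121 (11.2%). Scaffold peaks were thus spread over many sequences, with no scaffold holding more than 15.

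**Figure D1:**
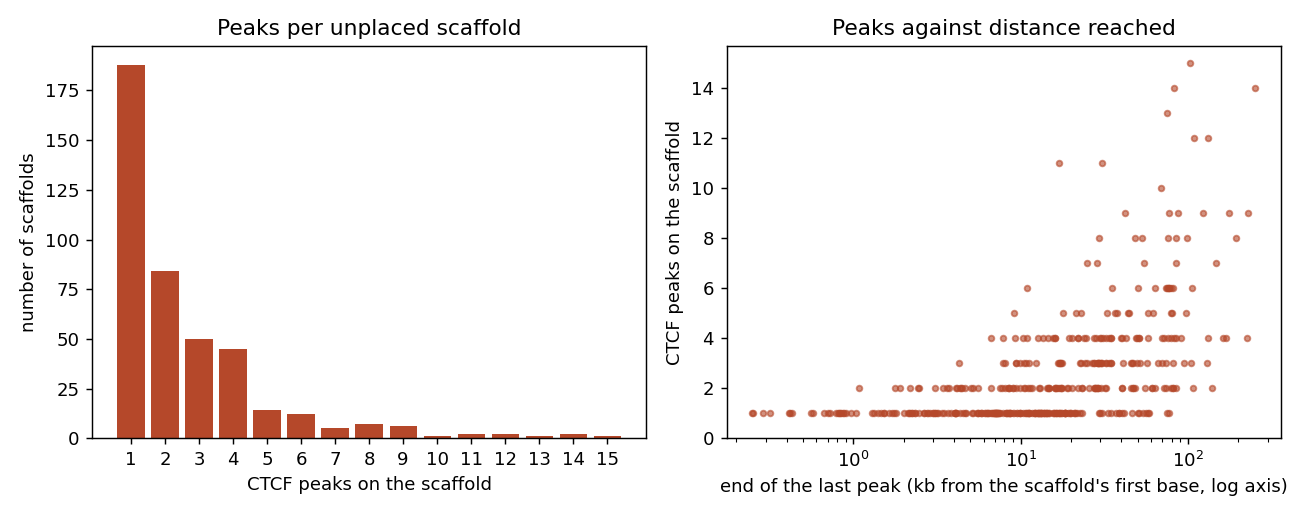
Left, number of scaffolds (y axis) by the number of CTCF peaks they hold (x axis); right, each point is 1 scaffold, with its peak count (y axis) against the end of its last peak in kb from its first base (x axis, log). 188 scaffolds hold 1 peak and the fullest holds 15, and scaffolds whose peaks reach farther hold more of them.

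KN150222v1 was the fullest scaffold, with 15 peaks between 34045 and 103000 and scores from 170 to 798. KN150487v1 held 14 peaks between 849 and 82054, of which 1, at 71291 to 72845, was 1555 bp wide. KN150460v1 also held 14, spread out to 252845, the farthest position of any scaffold peak. These 3 scaffolds had median scores of 433, 405 and 473.5, and 1 of their peaks scored above 1000 (1324, on KN150487v1). KN150617v1 had 13 peaks, and KN149962v1 had 12, with scores up to 892. KN150375v1 also had 12 and ranked behind it by its highest score, 678.

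The reach of the peaks along a scaffold was short. Scaffold lengths are not known from the list, so the end of the last peak is used as a lower bound of the length. It had a median of 16021.5 bp (quartiles 6908 and 36687.5 bp), and ranged from 247 to 252845 bp. Scaffolds that reached farther held more peaks (Spearman's rho = 0.635 across 420 scaffolds, a description in which a scaffold with more peaks is also bound to reach farther). Up to their last peaks, the scaffolds spanned 12.2 Mb and held 88.7 peaks per Mb, against 27.3 per Mb on the chromosomes. Chromosome peaks within 2 Mb of an end lay closer together, with a median distance between neighbours of 8049 bp against 17520.5 bp on whole chromosomes. Their density was not computed, so the scaffold densities here are set beside whole chromosomes only. Peaks covered 3.24% of the 12.2 Mb, against 0.899% on the chromosomes. Scaffolds without a peak are not in the list and sequence beyond the last peak is not counted, so these densities overstate the density of unplaced sequence. The 18 scaffolds that reached beyond 100 kb held 127 peaks, or 46.3 per Mb, and the 60 that reached 50 to 100 kb held 269, or 62.9 per Mb. Density up to the last peak was lower in each class of farther-reaching scaffolds, starting from 523 per Mb on the 82 whose last peak ended within 5 kb. This fall is partly built in, because each listed scaffold holds at least 1 peak and its reach is also the divisor of the density.

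Scaffold peaks scored higher than chromosome peaks by rank, by a small margin. Their median score was 400 (interval 381 to 418, n = 1085), with quartiles of 276 and 610. Chromosome peaks had a median of 368 (367 to 371, n = 36540), and single chromosomes ranged from 351.5 on chromosome 15 to 388 on chromosome 13. A scaffold peak outranked a chromosome peak in 53.4% of pairs, where 50% means no difference. A single chromosome set against the other 24 gave 50.0 ± 1.38% (SD, n = 25 chromosomes), from 47.1 to 53.0%. The value for scaffolds lay above all 25, but without the 9 scaffolds that held a score above 2000 it was 52.5%, below the 53.0% of chromosome 13.

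The higher rank came from the top of the list. The highest score decile of the whole list, scores above 753, took in 160 scaffold peaks, 14.7% of them (12.7 to 17.0%), against 9.84% of chromosome peaks and 7.33 to 12.4% on single chromosomes. The next decile took in 12.2%. At the bottom the shares were close, with 10.3% of scaffold peaks (8.58 to 12.3%) and 10.1% of chromosome peaks in the lowest decile. The 5th percentile of the score was 183 in both. Scaffold peaks were less common in the 3rd and 4th deciles, with 7.74% in each (6.22 to 9.50%). The lowest values of any chromosome there, 7.90 and 8.54%, were higher but lay inside that interval.

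**Figure D2:**
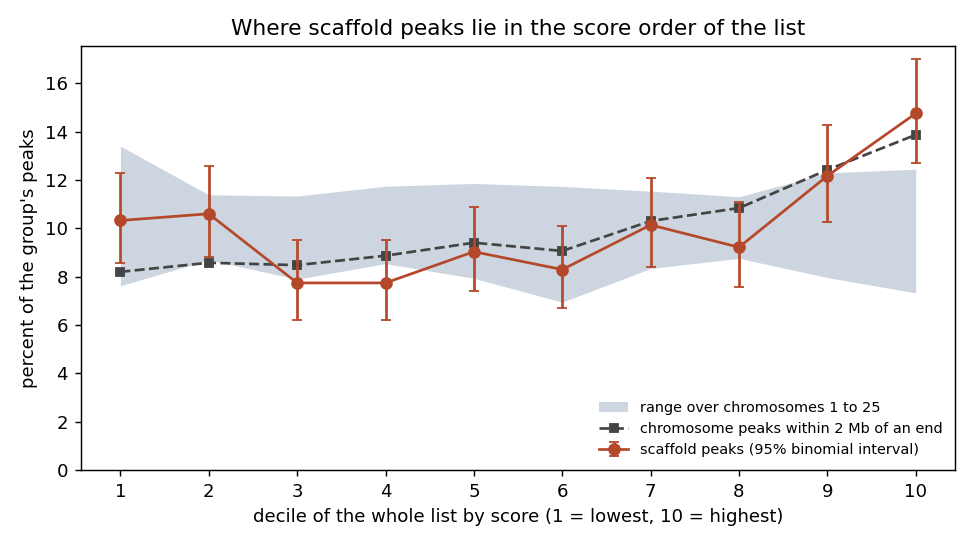
Percent of a group's peaks (y axis) in each decile of the whole list by score (x axis, 1 the lowest); points with bars are scaffold peaks with 95% binomial intervals, squares are chromosome peaks within 2 Mb of an end, and the band is the range over 25 chromosomes. Scaffold peaks lie above the band in the highest decile (14.7%), as do peaks near chromosome ends (13.9%).

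Peaks near chromosome ends gave a closer match in score than the rest of the chromosomes. The 6146 chromosome peaks within 2 Mb of an end had a median score of 406 (400 to 413), and the 30394 others had 363 (360 to 366). Scaffold peaks outranked the others in 54.3% of pairs and those near ends in 48.7%. The 48.7% lay within the 47.1 to 53.0% of single chromosomes, so no difference in score from peaks near ends is read from it. The higher score rank of scaffold peaks thus depended on the set chosen for comparison. In the highest decile of the list the shares were 14.7% of scaffold peaks and 13.9% of peaks near ends. In the lowest decile they were 10.3% and 8.20%. The 287 peaks of chromosome 4 beyond 70 Mb, on its distal long arm, had a median score of 329, and scaffold peaks outranked them in 59.1% of pairs.

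Very strong peaks made up a larger share of scaffold peaks than of the list. Scores above 2000 were held by 12 of the 1085 (1.11%, interval 0.573 to 1.92%), against 0.213% of all peaks in the list, 0.186% of chromosome peaks and 0.390% of those within 2 Mb of an end (0.250 to 0.580%). No single chromosome exceeded 0.552%, the value of chromosome 14 with 7 such peaks, and chromosome 6 had none. With the limit at 1000, the count was 68 (6.27%, interval 4.90 to 7.88%), against 3.41% of the whole list, 5.35% near chromosome ends (4.80 to 5.95%) and 4.67% on chromosome 21, the highest of the chromosomes. The intervals of scaffold peaks and of peaks near ends overlapped at the limit of 1000. At 2000 they overlapped only between 0.573 and 0.580%, and each share lay outside the other's interval. Chromosome 4 beyond 70 Mb had 2 of 287 peaks above 2000 (0.697%, interval 0.0845 to 2.49%). By score, scaffolds held 3 of the first 10 peaks (interval 6.67 to 65.2%) and 9 of the first 50 (8.58 to 31.4%). Of the first 1000 they held 53 (5.30%, 3.99 to 6.88%), where their share of the whole list was 2.88%. The 3 lay on 2 scaffolds and the 9 on 6, so the very top rested on few sequences. The lowest score inside the limit of 2000 was 2047 and the highest outside it 1969.

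The 12 peaks above 2000 lay on 9 scaffolds, and 3 scaffolds held a pair of them. KN149861v1 carried 4 peaks between 3102 and 10917. Its inner peaks, at 3540 to 6580 (score 9014) and 6805 to 10217 (score 8236), were the 2nd and 3rd highest of the whole list and the 6th and 4th widest, at 3041 and 3413 bp. The outer ones were narrow, with 309 bp and a score of 1350 at 3102 to 3410, and 221 bp and a score of 645 at 10697 to 10917. The summits of the inner peaks were off centre, at 19.3% and 28.0% of the way along the peak. This was also the only scaffold with more than 1 peak of 1000 bp or wider.

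On KN150127v1 the strong peaks were narrow. The peak at 28962 to 29341 scored 3664 with a width of 380 bp, and that at 23171 to 23461 scored 3167 with a width of 291 bp. Each had a weaker peak beside it, scoring 257 at 802 bp and 423 at 604.5 bp between centres. The remaining 4 peaks of this scaffold scored 486 to 896. A similar arrangement was present on KN149919v1, whose 343 bp peak at 7360 to 7702 scored 3129 and whose only other peak scored 711, at 431.5 bp.

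KN150411v1 held a dense array, with 11 peaks between 1077 and 16925. Of these, 5 scored above 1000, at 1818, 3096, 1699, 2664 and 1865 in order along the scaffold. The others scored 259, 142, 967, 632, 335 and 849, and each of the 5 strong peaks had a weaker one within 1 kb. Its median score of 967 was the highest of the 53 scaffolds with 5 or more peaks, whose medians went down to 225 on KN149693v1. Spacing between neighbouring strong peaks on this scaffold was not regular, as the plot of single scaffolds shows.

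**Figure D3:**
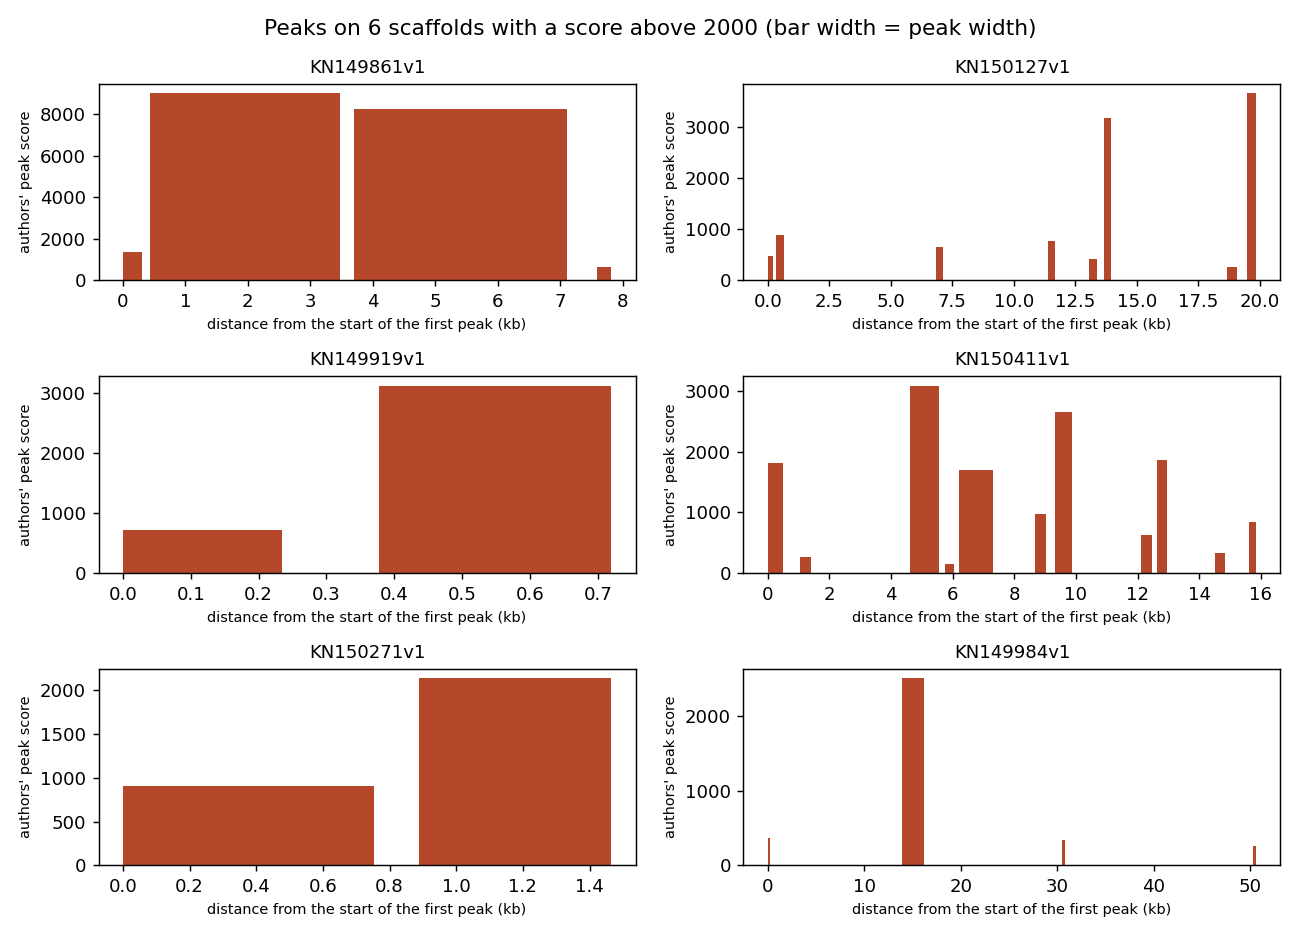
Peaks of 6 scaffolds with a score above 2000, drawn to scale within each panel: bar height is the authors' score (y axis), bar width the peak's width, and the x axis the distance in kb from the start of the first peak; scales differ between panels. KN149861v1 carries a pair of wide peaks (9014 and 8236), KN150127v1 a pair of narrow ones (3664 and 3167) and KN150411v1 an array of 11.

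The other scaffolds with a score above 2000 held 1 such peak each. KN149984v1 had a 2268 bp peak scoring 2502 at 34916 to 37183, 14895 bp from its nearest neighbour. KN149681v1 held 3 peaks with centres 34214 and 33944 bp apart, scoring 1075, 2322 and 321. KN150271v1 had peaks of 905 and 2138 with centres 800 bp apart, both within the first 1776 bp of the scaffold. On KN150125v1 a peak of 2129 stood beside peaks of 395, 600 and 262, and on KN150649v1 a peak of 2047 stood 30656.5 bp from one of 170. Strong peaks thus occurred both in close company and alone.

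Company was more common beside strong scaffold peaks than beside strong chromosome peaks, as it was over all peaks. Of the 68 scaffold peaks above 1000, 27 (39.7%, interval 28.0 to 52.3%) had another centre within 2 kb, against 244 of 1216 on chromosomes (20.1%, 17.8 to 22.4%). Above 2000 the counts were 7 of 12 and 20 of 68, with intervals of 27.7 to 84.8% and 19.0 to 41.7% that overlapped. Over all peaks, 32.4% on scaffolds, 23.0% on chromosomes and 32.2% within 2 Mb of chromosome ends had such a neighbour. The 32.4% lay inside the interval of scaffold peaks above 1000, which is too wide to show whether company set these apart from scaffold peaks in general. On chromosomes the share above 1000, 20.1%, was below the 23.0% over all peaks. Strong peaks near ends were not counted separately, and 5 of the 27 strong scaffold peaks with company lay on KN150411v1. Scores above 1000 were found on 55 scaffolds, 13.1% of the 420, and 8 of these had more than 1. Besides those named, KN150617v1 had 3 (1821, 1393 and 1234).

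Scaffold peaks were wider than chromosome peaks. Their median width was 282 bp (interval 274 to 289), against 263 bp (262 to 264) on the chromosomes, where single chromosomes ranged from 258 to 270 bp. A scaffold peak was the wider in 55.1% of pairs, and a single chromosome against the other 24 gave 50.0 ± 0.964% (SD, n = 25), at most 52.9% on chromosome 18. Against chromosome peaks within 2 Mb of an end, with a median of 277 bp, the value was 50.9%. Widths of 500 bp or more were reached by 16.6% of scaffold peaks (14.4 to 18.9%), against 12.1% of the whole list and 14.4% near chromosome ends (13.5 to 15.3%). Widths of 1000 bp or more were reached by 28 (2.58%, interval 1.72 to 3.71%), against 1.30% of the whole list. Near chromosome ends the share was 1.51% (1.22 to 1.85%). The 2 intervals overlapped, and each share lay outside the other's interval. At this limit chromosome 18 was higher than scaffolds, at 2.74% with 49 peaks, and the other 24 chromosomes were lower. Chromosome 4 beyond 70 Mb had 2.09% (interval 0.771 to 4.49%). The narrowest of the 28 was 1003 bp and the widest peak below the limit 988 bp.

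The 28 wide peaks lay on 27 scaffolds. After the pair on KN149861v1, the widest were a 2414 bp peak on KN150031v1 (30570 to 32983, score 497), the 2268 bp peak of KN149984v1 and a 1750 bp peak on KN149998v1 (49655 to 51404, score 927). Among the 461 chromosome peaks of 1000 bp or wider, 12 scored above 2000 and 97 (21.0%) above 1000. Of the 28 on scaffolds, 3 scored above 2000 and 10 (35.7%) above 1000. Their median score was 877, against 567 for the 461 chromosome peaks as wide, and they outranked these in 66.1% of pairs, where single chromosomes gave 36.4 to 63.9%. The summit lay outside the middle stretch between 25% and 75% of the width in 15 of the 28 (53.6%), and in 47.5% of wide chromosome peaks. Wide scaffold peaks had another centre within 2 kb in 11 cases (39.3%), against 54.2% on chromosomes. Over peaks of all widths the shares were 32.4% on scaffolds and 23.0% on chromosomes. No interval was computed for the 11 cases, so no difference between scaffolds and chromosomes is read from them.

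**Figure D4:**
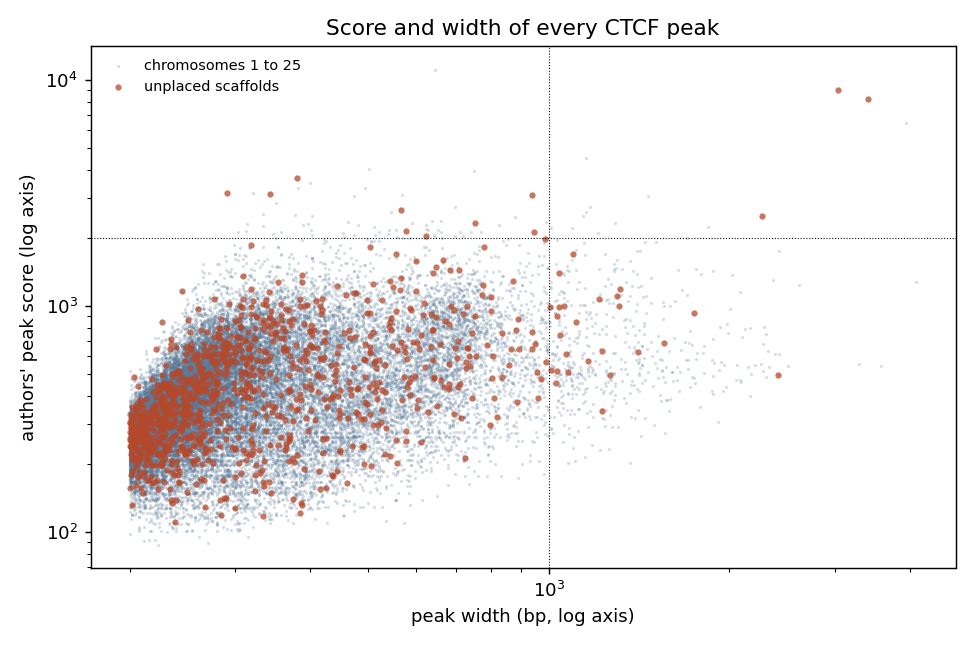
Every peak of the list by width in bp (x axis, log) and authors' score (y axis, log), with scaffold peaks in the darker red and chromosome peaks in blue; dotted lines mark 1000 bp and a score of 2000. Of the 12 scaffold peaks above 2000, 3 are 1000 bp or wider and 3 are under 400 bp.

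At like widths the difference in score was uneven. Among the narrowest peaks, 200 to 249 bp, scaffold peaks had a median score of 294 (n = 386) and chromosome peaks 302 (n = 15496). Scaffold peaks outranked them in 47.0% of pairs, within the 46.5 to 53.6% of single chromosomes. From 250 to 299 bp the value was 50.5%, with medians of 445 and 442. From 300 to 399 bp it was 54.4% (medians 536 and 483), above the 45.9 to 53.9% of single chromosomes. From 400 to 599 bp it was 54.1% and from 600 to 999 bp 55.2%, within the range of single chromosomes in both. Score and width rose together on scaffolds (Spearman's rho = 0.549 across 1085 peaks) and on chromosomes (0.499 ± 0.0321, SD over 25 chromosomes). Summits sat near the centre, at a median of 48.9% of the width on scaffolds and 49.6% on chromosomes.

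Neighbouring peaks on scaffolds were close together. The 232 scaffolds with more than 1 peak gave 665 neighbouring pairs, with a median distance between centres of 5086.5 bp (interval 4409 to 5921.5) and quartiles of 1545.5 and 12898 bp. The median was 17520.5 bp on the chromosomes, from 12053 bp on chromosome 22 upward, and 8049 bp within 2 Mb of chromosome ends. Within 2 kb lay 199 scaffold pairs (29.9%), against 12.9% on chromosomes and 18.5% near their ends. Counted by peaks, 351 scaffold peaks (32.4%, interval 29.6 to 35.2%) had another centre within 2 kb, against 23.2% of the whole list, 32.2% near chromosome ends (31.0 to 33.3%) and at most 30.0% on a single chromosome (chromosome 18). By this count the intervals of scaffold peaks and of peaks near chromosome ends overlapped, and chromosome 4 beyond 70 Mb also had 32.4% (27.0 to 38.2%). With the limit at 10 kb, 64.1% of scaffold peaks (61.1 to 66.9%) had such a neighbour, against 56.3% of the whole list. The shares were higher near chromosome ends, at 76.8% (75.7 to 77.8%), and on chromosome 4 beyond 70 Mb, at 76.7% (71.3 to 81.4%).

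A scaffold's length bounds the distance at which a second peak can be seen, so long distances are missing from these data by construction. Among pairs within 10 kb of each other, 43.9% of those on scaffolds lay within 2 kb, against 35.6% on all chromosomes, 32.8% near their ends and 35.6 ± 3.45% on single chromosomes (SD, n = 25), of which chromosome 18 reached 44.6%. On the 60 scaffolds that reached 50 to 100 kb, 49 of 209 pairs (23.4%) lay within 2 kb. On the 18 that reached beyond 100 kb, 23 of 109 (21.1%) did. Both shares lay below the 29.9% of all scaffolds and above the 12.9% of the chromosomes. They were nearer to the 18.5% of pairs near chromosome ends, and no interval was computed for either share. Of pairs within 10 kb, 9.93% lay over 500 and up to 750 bp apart on scaffolds and 8.01% on chromosomes. At 5 to 10 kb the order was opposite, with 27.4% and 34.6%. The length bound also acts within 10 kb. Scaffolds whose last peak ended within 5 kb can hold no pair 5 to 10 kb apart, and 16 of their 18 pairs lay within 2 kb. How much of the difference in these shares comes from that bound was not tested.

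**Figure D5:**
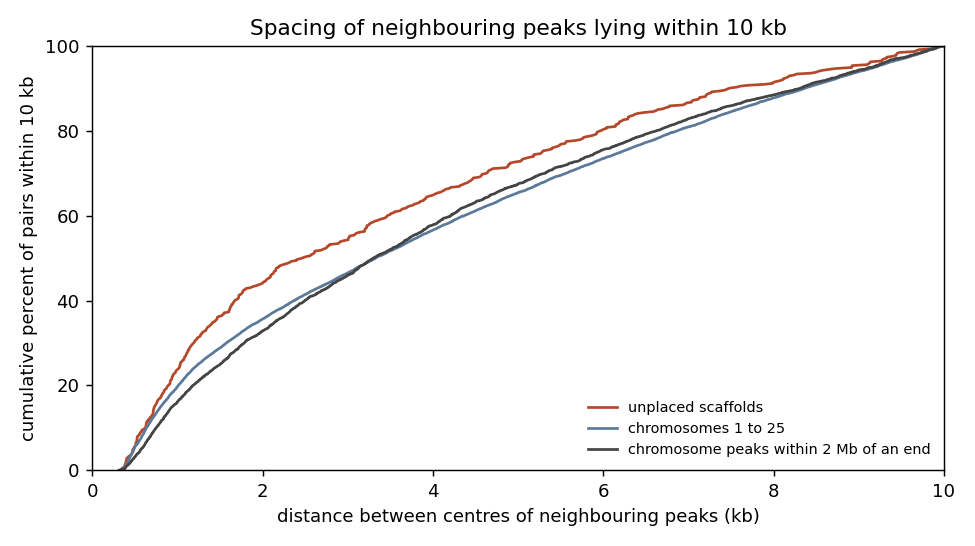
Cumulative percent of neighbouring pairs within 10 kb (y axis) by the distance between their centres in kb (x axis), for scaffolds, chromosomes and chromosome peaks within 2 Mb of an end. At 2 kb the lines stand at 43.9, 35.6 and 32.8%.

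The closest pair of centres was on KN150359v1, 343.5 bp apart, with peaks at 34194 to 34410 (score 303) and 34532 to 34759 (score 356). The most distant neighbours were on KN150474v1, where the peaks ending at 58766 and starting at 162057 had centres 103600.5 bp apart. No pair on a scaffold had edges closer than 101 bp. Peaks with another centre within 2 kb scored 392 at the median (n = 351) and the other peaks of the 232 scaffolds 401 (n = 546), and the first outranked the second in 49.9% of pairs. On chromosomes such peaks ranked lower, at 47.8%. They were wider in both settings, with medians of 293 and 278 bp on scaffolds and 275 and 260 bp on chromosomes.

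Peaks of the same scaffold differed widely in score. Between the lowest and the highest peak of a scaffold the median range was 58.2 percentile points of the whole list (quartiles 26.1 and 79.4, n = 232 scaffolds). Peaks from both sides of the list's median occurred together on 165 scaffolds (71.1%). The range and this share both tend to rise with the number of peaks on a scaffold. Neither was set beside peaks drawn from different scaffolds. Whether peaks of the same scaffold differed more or less than unrelated peaks is thus not read from them. Scores of neighbours within 2 kb were weakly related (Spearman's rho = 0.161 across 199 pairs that share a scaffold, 0.124 across 4716 on chromosomes), and over 10 kb apart rho was 0.010 and 0.022. Of the 53 scaffolds with 5 or more peaks, 35 had a median score above the chromosomes' 368. The median over all scaffold peaks, 400, also lay above it, so the count does not single out these scaffolds. Median scores did not follow the number of peaks on a scaffold. The median was 417 for lone peaks, 382 on scaffolds with 2 peaks, 387.5 with 3 to 4 and 416 with 5 or more, and the intervals of all 4 classes overlapped. By reach, peaks outranked chromosome peaks in 58.3% of pairs on scaffolds ending within 5 kb, 57.2% at 5 to 20 kb, 47.2% at 20 to 50 kb, 56.3% at 50 to 100 kb and 49.5% beyond 100 kb. The share of scores above 1000 in the same classes was 10.0, 8.33, 4.32, 7.06 and 1.57%. On the 18 scaffolds that reached beyond 100 kb it came from 2 of 127 peaks, none of them above 2000, and lay below the 3.33% of chromosome peaks. None of the 188 lone peaks scored above 2000. The share above 2000 was 0.213% over the whole list and 1.11% over scaffold peaks. Few such peaks would fall in sets of 127 or 188 at either share, so nothing is concluded from their absence.

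Some peaks ran up to the first base of their scaffold. The first base of KN150544v1 and that of KN149937v1 were each the start of a lone peak, 555 bp wide with a score of 1691 and 665 bp wide with a score of 1599. Their ranks in the whole list by score were 141 and 179, although the scaffold's edge bounds their width on that side. In all, 7 peaks began within the first 50 bp, with scores from 177 to 1691. The 45 peaks that began within the first 1 kb scored 464 at the median, and the 1040 that began farther in scored 395. The far edges of the scaffolds were not analysed here.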

How the data were processed

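CTCF ChIP-seq was performed on 2 replicates, with 2 input samples, as 100 bp single-end reads from chromatin sheared to 100 to 200 bp, per the labels' protocols. The submitters' processing notes name danRer10 and, without role or order, MACS2, Bowtie2 2.2.5, deepTools 3.0.1, Picard 1.45, SAMtools 1.1, cutadapt 1.3, FastQC 0.9.3 and CASAVA. The single deposited file is a narrowPeak list of combined replicates, per the file headers. It gives starts, ends, summits and a score as deposited by the authors, whose scale, like the caller's threshold, the treatment of reads that match several places and the use of the input, is not given in the sources used here. Signal, p and q were 0 in every row and were not used. The depth is unknown.

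Positions are printed 1-based. Peaks were split by sequence name, and distances were taken between centres on the same sequence. Chromosome ends were the first base and the end of the last peak. Rank comparisons give the percentage of pairs in which the first set is higher, ties split evenly. Intervals are exact binomial (Clopper-Pearson) for shares and order-statistic for medians. Functions were tested on simulated data. Limits of 2000 for the score, 1000 bp and 2 kb, the members and the named scaffolds (any score above 2000, more than 1 peak of 1000 bp or wider, the 5 fullest, ties by highest score, the 5 highest-scoring and 5 widest peaks, the closest and most distant neighbours) were chosen with earlier results of these data known. Other scaffolds, such as those with the lowest and highest medians and those with a peak at the first base, were named after their values were seen. Python 3.11.15, numpy 2.4.6, scipy 1.17.1, pandas 2.3.3 and matplotlib 3.10.9 were used.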

Additional observations from a re-analysis of the deposited data

How the results depend on the processing

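Of 59 alternatives, 30 left their value within its counting interval, within the spread of chromosomes or, for the count, within 1.5 times, and 28 moved it. In 1 the value fell below 50%: scaffold peaks outranked chromosome peaks within 2 Mb of an end in 48.7% of pairs by score. This turn stayed within the 47.1 to 53.0% of single chromosomes. By width the value was 50.9%. Keeping scores at or above the list's median of 369 left 595 scaffold peaks by construction, 3.15% of the list. It gave 55.8% of pairs by score and 56.9% by width. Shares were 2.02% above 2000 (0.372% on chromosomes), 4.54% of 1000 bp or wider (2.23%) and 20.8% with a neighbour within 2 kb (12.3%). The median distance was 5930 bp (34280.5 bp), and 55.6% of scaffolds had 1 peak. Keeping scores at or above 533 left 347 peaks, 3.67% of the list, with 55.0% of pairs by score and 55.7% by width. Shares were 3.46% above 2000 (0.747% on chromosomes), 6.05% of 1000 bp or wider (2.92%) and 14.4% with a neighbour within 2 kb (6.86%). The median distance was 7083 bp (64148 bp), with 66.1% of scaffolds holding 1 peak and 15.0% of peaks on the 10 fullest scaffolds. Merging peaks within 500 bp gave 5.88% of 1000 bp or wider (3.29% on chromosomes), 18.4% with a neighbour within 2 kb (12.5%) and a median distance of 6620.5 bp (19806.5 bp). Without the 10 fullest scaffolds the share of the list was 2.57%. Other limits moved shares by construction, given here with the share over the whole list in brackets. Widths of 500 bp or more gave 16.6% (12.1%), widths of 2000 bp or more 0.369% (0.0957%) and scores above 1000 gave 6.27% (3.41%). Neighbours within 1 kb gave 18.3% (13.3%) and within 10 kb 64.1% (56.3%). At 10 kb the share near chromosome ends was higher, at 76.8%. Leaving out the 9 scaffolds with a score above 2000 gave 52.5% of pairs by score, no longer above every chromosome. The cause of the turn and of moves other than by construction was not tested. No paired analysis was possible because the deposited list combines the replicates, which also allowed no replicate to be left out. With unknown depth, absence from the list does not show that a site was free of CTCF.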
